A study of Mus musculus with 5 samples.

Results

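The G2 and mitosis genes were a set of 38 genes whose products carry a cell from the end of DNA replication through chromosome segregation and cytokinesis. They were taken by gene name from the expression tables of the 5 libraries, and TPM (a gene's length-corrected share of the transcripts of a library, scaled to a common total) was summed per gene identifier. All 38 were among the 46078 genes of these tables and among the 13870 genes whose mean TPM was 1 or more, and 30 were among the 7599 genes of the count table. They lay on 16 chromosomes, with 1 of them, Kif4, on the X chromosome.

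RNA-seq was made on neural stem and precursor cells from the subventricular zone, the germinal layer along the lateral ventricles of the adult mouse forebrain. The cells were of the C57BL/6 strain (C57BL/6j in the methods) with no mutation and were expanded as neurospheres before they were put on plates coated with PDL. Phosphate-buffered saline (PBS) was added as a sham exposure, and RNA was taken 1 h later in 2 libraries (replicates 1 and 2) and 8 h later in 3 libraries (replicates 13, 14 and 15). The labels give all 5 libraries as female, aged 5 to 8 weeks, whereas the methods of the study give an older age. PBS was common to both groups, so the only labelled contrast was the time after its addition, which followed plating by a day, and the methods count 1 animal as 1 biological replicate. The comparison of 8 h with 1 h therefore asks whether the level of these genes differed with time in cultured precursor cells.

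The libraries did not all fit their labels. Xist, the RNA that coats the inactive X chromosome of female cells, had 0.0611 and 0.0285 TPM at 1 h and 0.0308 in 8 h replicate 14, but 165 and 199.7 in 8 h replicates 13 and 15. Of the Y chromosome, Uty, Kdm5d, Ddx3y and Eif2s3y together had 138 to 181 TPM in the first 3 libraries and at most 0.0253 TPM in the other two. The identifiers in the labels divide the libraries in the same way, into series 1 (both 1 h libraries and 8 h replicate 14) and series 2 (8 h replicates 13 and 15). The sources used here do not say what distinguishes the series. Series 2 holds no 1 h library, so between series 2 and the 1 h libraries time, series and sex genes cannot be told apart, and only 8 h replicate 14 gives a comparison of time within a series. Count columns were compared with TPM tables by each gene's deviation, on the log2 scale, from its own mean over the 5 libraries, and not by its level. These deviations were correlated across 6860 genes, which are not independent replicates. In the count table, the 1 h columns followed the TPM tables of their names, with correlations of 0.774 and 0.716. The column named 8 h replicate 13 followed the table of 8 h replicate 14 (0.781) and not its own (-0.435). The column named 8 h replicate 15 followed the table of 8 h replicate 13 (0.874) and also its own (0.763), while the column named 8 h replicate 14 followed none closely (highest 0.259). Each library had 13681 to 13967 genes at 1 TPM or more, and mitochondrial transcripts took 10.7% to 11.1% of the TPM in series 1 and 6.23% and 6.30% in series 2.

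At the end of G2, cyclin A and cyclin B bind and activate CDK1, which starts mitosis, and AURKA and PLK1 drive centrosome maturation and spindle assembly. The spindle assembly checkpoint holds back the anaphase-promoting complex (APC/C) until every kinetochore is attached to microtubules, and APC/C with CDC20 then releases separase, which cuts the cohesin ring between sister chromatids. Transcription of these genes is periodic. In resting cells the DREAM complex represses them, and in G2 the MMB complex and FOXM1 activate them, largely through the cell cycle genes homology region (CHR) and CCAAT boxes of their promoters. In the subventricular zone such genes mark transit-amplifying cells and activated stem cells, as most stem cells there are quiescent.

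The promoters of the 4 most highly expressed members whose promoter window held both elements are shown, since these elements were in most promoters of the group. They come from RefSeq (GRCm38.p6) and run 5′ to 3′ from 200 bases before the transcription start to 30 bases after it. Capitals mark the CHR letters (TTTGAA or TTCGAA) and the CCAAT box letters (CCAAT) on either strand, so that TTCAAA and ATTGG are the same letters on the other strand. The Top2a window lies at chr11:99024160-99024389 (minus strand), that of Ube2c at chr2:164769729-164769958 (plus strand), that of Bub3, for 1 of its starts, at chr7:131560294-131560523 (plus strand), and that of Cdc20 at chr4:118437314-118437543 (minus strand).
Top2a: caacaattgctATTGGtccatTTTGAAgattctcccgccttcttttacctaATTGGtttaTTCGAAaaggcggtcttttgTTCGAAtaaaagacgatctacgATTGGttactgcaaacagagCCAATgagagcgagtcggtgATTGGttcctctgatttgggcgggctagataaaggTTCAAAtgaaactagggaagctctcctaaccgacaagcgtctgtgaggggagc
Ube2c: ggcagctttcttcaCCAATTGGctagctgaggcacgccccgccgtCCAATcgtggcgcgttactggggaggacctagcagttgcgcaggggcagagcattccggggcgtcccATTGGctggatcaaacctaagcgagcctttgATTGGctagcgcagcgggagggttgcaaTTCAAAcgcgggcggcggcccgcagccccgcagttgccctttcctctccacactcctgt
Bub3: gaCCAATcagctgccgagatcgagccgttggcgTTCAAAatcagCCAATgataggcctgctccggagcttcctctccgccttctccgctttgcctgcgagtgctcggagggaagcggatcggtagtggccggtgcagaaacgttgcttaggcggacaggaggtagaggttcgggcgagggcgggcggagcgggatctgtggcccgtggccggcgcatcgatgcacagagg
Cdc20: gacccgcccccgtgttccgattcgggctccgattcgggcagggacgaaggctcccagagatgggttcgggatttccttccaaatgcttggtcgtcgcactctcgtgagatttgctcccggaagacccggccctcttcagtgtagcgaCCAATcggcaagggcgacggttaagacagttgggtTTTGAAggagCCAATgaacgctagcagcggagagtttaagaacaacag
Top2a had 4 runs of CHR letters in this stretch, the one nearest the start beginning at base -23, and 5 CCAAT boxes. Ube2c had 1 run of CHR letters, at base -29, and 5 CCAAT boxes, of which those at -186 and -183 overlap on opposite strands. In Cdc20 the CHR letters began at base -18, between CCAAT boxes at -53 and -8, and in Bub3 at base -167, between boxes at -198 and -156. The only CHR letters of Bub3 thus lay far from this start, although its other start places the same letters at base -43.

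Over whole windows of 300 bases (250 before to 50 after the start), the table of RefSeq promoters used here held 34 windows of 31 members. Its missing entries were Ccna2, Foxm1, Cdc25c, Aurkb, Incenp, Kif20a and Tpx2. CHR letters were in 28 of them (82.4%), against 19.2% of all 32851 promoter windows, and a CCAAT box was in 27 (79.4%), against 37.4%. At least 2 CCAAT boxes were in 19 (55.9%, against 11.7%), and both elements in 25 (73.5%, against 7.52%). Windows of genes with several starts share sequence. Birc5, Mad2l1, Nuf2 and Nusap1 held neither in this window. A match is a match of letters and not a binding site, and binding was not measured.

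**Figure D1:**
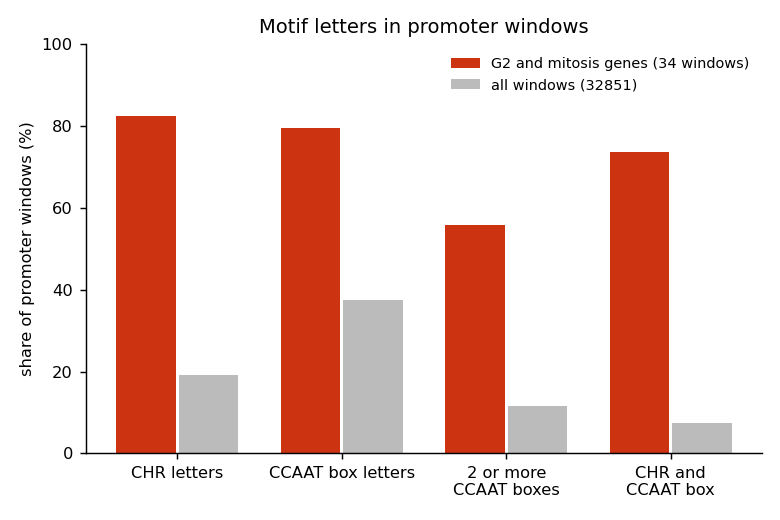
Share of promoter windows (%, vertical axis) holding each motif on either strand, for the 34 windows of G2 and mitosis genes (red) and all 32851 windows (grey). CHR letters were in 82.4% against 19.2% and both motifs together in 73.5% against 7.52%.

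All 38 genes were expressed in every library. Their TPM summed to 1379.9 and 1495 at 1 h, to 1337 in 8 h replicate 14, and to 3544 and 3666 in 8 h replicates 13 and 15, which is 0.138%, 0.1495%, 0.134%, 0.354% and 0.367% of the library. The median gene had 28.4 and 31.3 TPM at 1 h, 26.5 in 8 h replicate 14, and 73.2 and 76.1 in 8 h replicates 13 and 15. The 8 h group was therefore made up of 1 library at the level of the 1 h libraries and 2 libraries far above it. Top2a was the highest member in each library, and the lowest was Cdc25c, Anln or Espl1, with 9.09 to 22.5 TPM. In bulk RNA, more cells in G2 and mitosis and more of these transcripts per cell cannot be told apart.

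For every one of the 38 genes (100%), both series 2 libraries lay above all 3 libraries of series 1, a pattern found in 39.8% of all genes tested. They did so by over 1.5 times for 36 of them (94.7%), against 5.93% of all genes. Only Bub3 and Mki67 were closer. In contrast, 8 h replicate 14 lay below both 1 h libraries for 21 genes (55.3%), between them for 12 (31.6%) and above both for 5 (13.2%). Over all genes tested these shares were 33.4%, 29% and 37.6%. Those 5, Aurka, Mad2l1, Kif2c, Ect2 and Anln, were the only members (13.2%) with each 8 h library above both 1 h libraries, and 23.7% of all genes showed that separation.

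**Figure D2:**
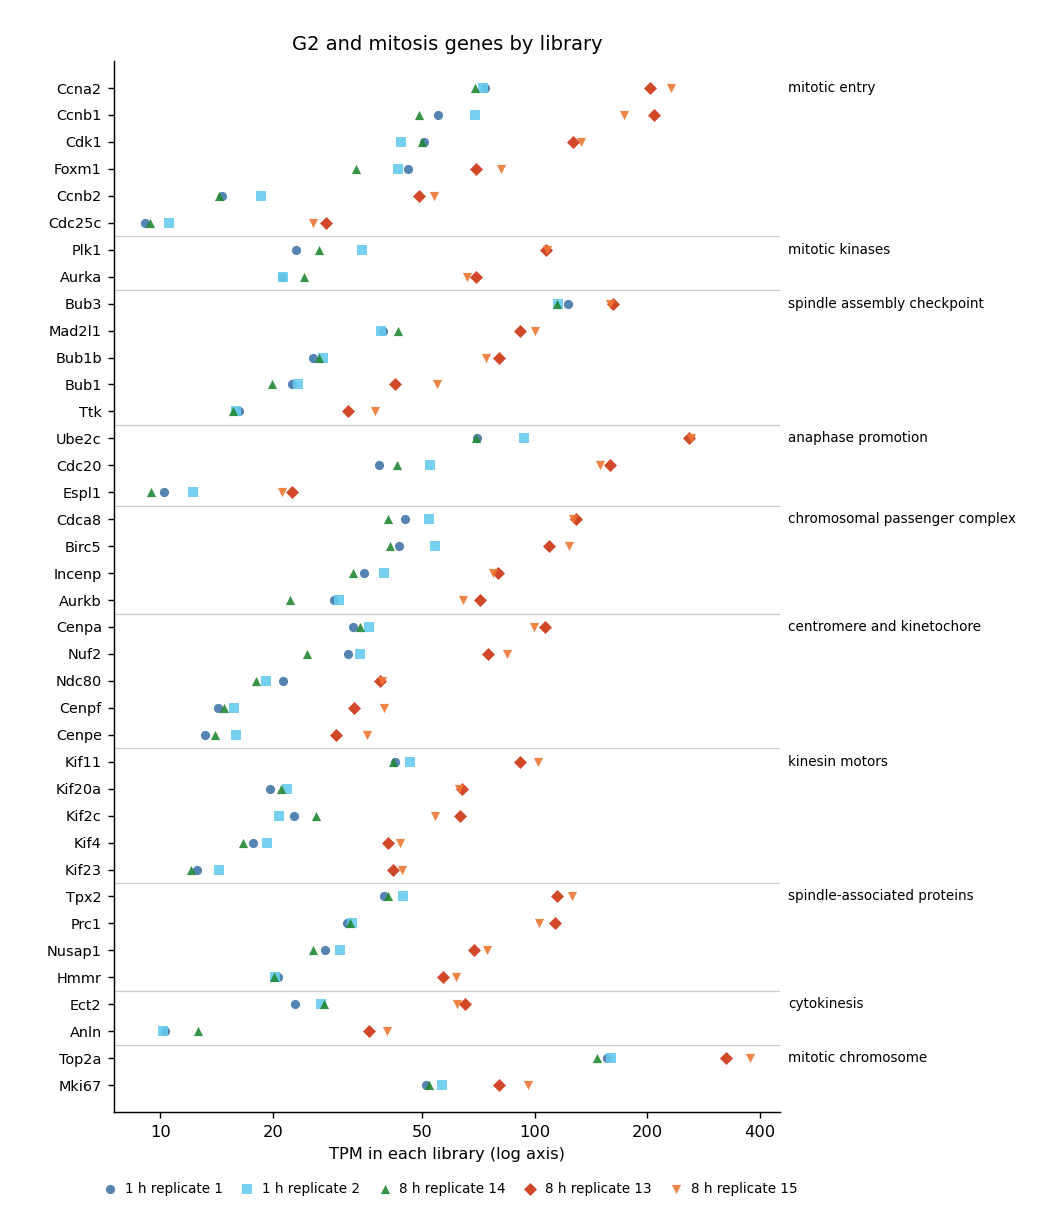
TPM (horizontal log axis) of the 38 G2 and mitosis genes, grouped by role, with 1 point per library. For each gene 8 h replicates 13 and 15 (red and orange) stand to the right of the 1 h libraries (blue) and 8 h replicate 14 (green), which lie close together.

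Limma on log2(TPM + 1) over all 5 libraries called 0 of the 38 genes, and 0.0433% of all genes tested (6 of 13870). A call needed an adjusted p of 0.05 or less and a log2 fold change beyond 1 in either direction. All 38 fold changes were above 0, with a median of 0.89 on the log2 scale against 0.10 over all genes, and adjusted p-values ran from 0.385 to 0.636. An unadjusted p under 0.05 was found for the 5 genes without overlap (13.2%), and 9.52% of all genes had one with a higher level at 8 h. Without 8 h replicate 14, 33 of 38 were called higher (86.8%, against 2.97% of all genes), with a median of 1.34, but that fit sets series 2 against series 1. The 5 others, Foxm1, Bub3, Espl1, Ndc80 and Mki67, had adjusted p-values of 0.00554 to 0.0223 and fold changes of at most 1. With the identifier series as a term, the fold change rests on 8 h replicate 14 against the 1 h libraries. In that fit the median was -0.074 over the 38 genes and 0.013 over all genes tested. Of the 38, 29 were below 0, and the share of all genes below 0 was not counted.

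**Figure D3:**
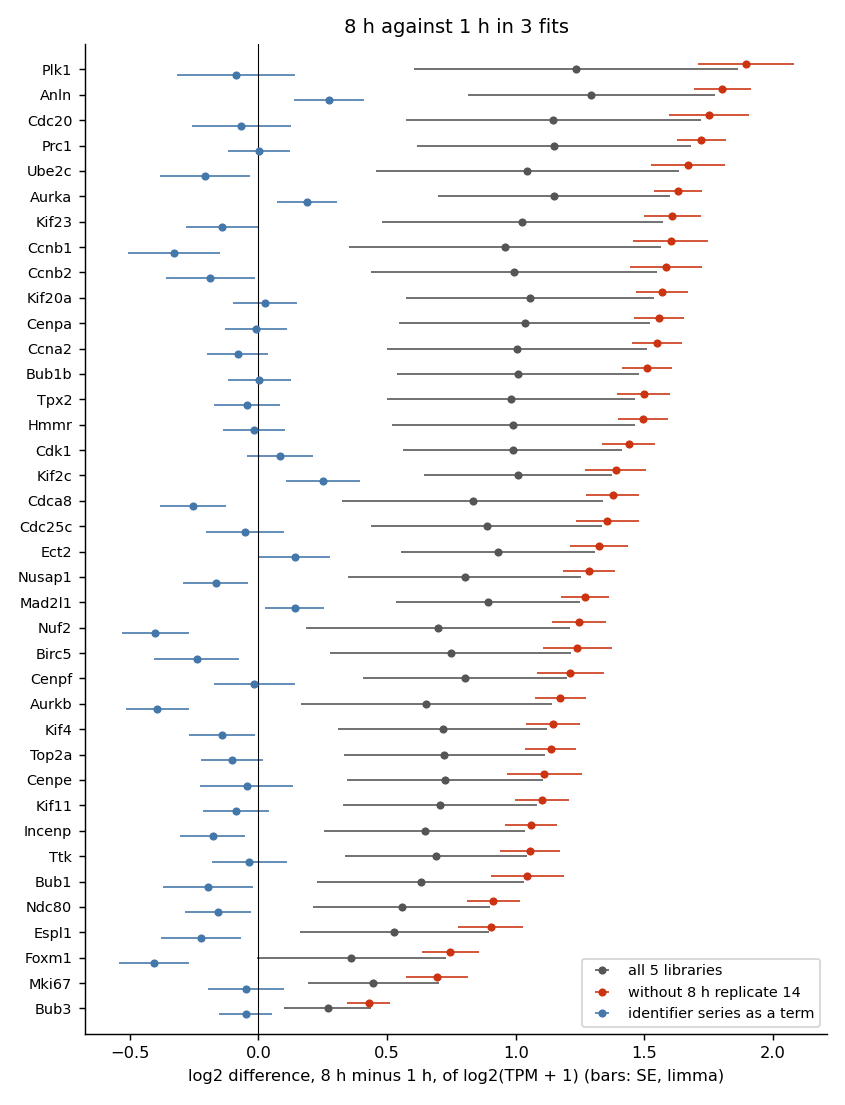
Difference between 8 h and 1 h in log2(TPM + 1) (horizontal axis, points with SE bars from limma) for each gene in 3 fits. With all 5 libraries (grey) values lie between 0.27 and 1.29, without 8 h replicate 14 (red) between 0.43 and 1.89, and with the identifier series as a term (blue) between -0.41 and 0.28.

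Of the genes of mitotic entry, Ccna2 encodes cyclin A2, which partners CDK2 and then CDK1. It had 73.8 and 72.96 TPM at 1 h, 69.3 in 8 h replicate 14, and 203 and 231 in 8 h replicates 13 and 15, a mean of 73.4 ± 0.627 TPM (SD, n = 2) at 1 h and of 168 ± 86.4 TPM (SD, n = 3) at 8 h. The groups overlapped, since 8 h replicate 14 was the lowest of the 5. Its fold change was 1.01 (SE 0.51, adjusted p = 0.438) with limma over all libraries and 1.55 (SE 0.096, adjusted p = 0.002) without 8 h replicate 14. Ccnb1 encodes cyclin B1, the main activator of CDK1, and had 55.3 and 69.3 TPM at 1 h, 49.1 in 8 h replicate 14, and 208 and 173 in 8 h replicates 13 and 15. It was lower in 8 h replicate 14 than in either 1 h library, and its within-series change by limma was -0.33 (SE 0.18, adjusted p = 0.653). Of the remaining entry genes none separated 8 h from 1 h, as 8 h replicate 14 lay within or below the 1 h range for each. Cdk1 itself, the mitotic kinase, had 50.6 and 43.9 TPM at 1 h, 50.1 in 8 h replicate 14, and 127 and 133 in 8 h replicates 13 and 15. Ccnb2, a second B-type cyclin, had 14.6 and 18.6 TPM at 1 h, 14.4 in 8 h replicate 14, and 49.1 and 53.8 in 8 h replicates 13 and 15. Cdc25c, a phosphatase that removes the inhibitory phosphates of CDK1, was among the lowest members, with 9.09 and 10.6 TPM at 1 h, 9.42 in 8 h replicate 14, and 27.8 and 25.6 in 8 h replicates 13 and 15. Cyclins and kinase alike were thus high in the same 2 libraries. For these 5 genes the series 2 mean was 2.59 (Cdk1) to 3.89 (Ccnb1) times the value of 8 h replicate 14. Foxm1, the transcription factor that activates many of the other members, had 45.9 and 43.2 TPM at 1 h, 33.3 in 8 h replicate 14, and 69.6 and 81.4 in 8 h replicates 13 and 15. It had the lowest within-series change of all members, -0.41 (SE 0.14, adjusted p = 0.466), and its series 2 mean was 2.26 times 8 h replicate 14.

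Both mitotic kinase genes stood more than 2-fold higher in series 2 than in 8 h replicate 14. Plk1 (GRCm38, chr7:122159437-122169875, plus strand), which acts at centrosomes, kinetochores and the midbody, had 23.05 and 34.5 TPM at 1 h, 26.5 in 8 h replicate 14, and 107 and 108 in 8 h replicates 13 and 15. The ratio of series 2 to 8 h replicate 14, 4.06, was the highest of the 38 genes, and Plk1 also differed most between the 1 h libraries, by a factor of 1.499. Its fold change over all libraries was 1.23 (SE 0.63, adjusted p = 0.441) by limma. Aurka, the kinase of spindle poles, had 21.1 and 21.3 TPM at 1 h, 24.3 in 8 h replicate 14, and 69.97 and 65.8 in 8 h replicates 13 and 15. Its groups did not overlap, because 8 h replicate 14 stood slightly above both 1 h libraries, yet the fold change of 1.15 (SE 0.45, adjusted p = 0.401) by limma was not called and the within-series value was 0.19 (SE 0.12, adjusted p = 0.694).

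The 5 spindle assembly checkpoint genes had a median ratio of series 2 to 8 h replicate 14 of 2.22. Bub3, which recruits BUB1 and BUBR1 to kinetochores, had 123 and 116 TPM at 1 h, 115 in 8 h replicate 14, and 162 and 159 in 8 h replicates 13 and 15. Its ratio was 1.396, the lowest of the 38, and its fold change was 0.27 (SE 0.17, adjusted p = 0.4901) by limma. Mad2l1, which encodes the MAD2 protein that binds and inhibits CDC20, had 39.3 and 38.8 TPM at 1 h, 43.1 in 8 h replicate 14, and 91.3 and 100.1 in 8 h replicates 13 and 15 and did not overlap between groups. Bub1b, which encodes BUBR1, had 25.6 and 27.2 TPM at 1 h, 26.5 in 8 h replicate 14, and 80.3 and 74.05 in 8 h replicates 13 and 15, so that 8 h replicate 14 lay between the 1 h libraries. The kinase genes Bub1 and Ttk, of which Ttk encodes the MPS1 kinase that starts checkpoint signalling, ranged from 15.7 to 23.4 TPM in series 1 and from 31.8 to 54.98 TPM in series 2.

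Ube2c encodes the ubiquitin-conjugating enzyme that primes APC/C substrates and was the second highest member in 8 h replicates 13 and 15. It had 70.1 and 93.5 TPM at 1 h, 69.97 in 8 h replicate 14, and 259 and 261 in 8 h replicates 13 and 15, with limma fold changes of 1.04 (SE 0.59, adjusted p = 0.466) over all libraries and 1.67 (SE 0.14, adjusted p = 0.00309) without 8 h replicate 14. Cdc20, the mitotic co-activator of APC/C, had 38.5 and 52.6 TPM at 1 h, 42.95 in 8 h replicate 14, and 159 and 149 in 8 h replicates 13 and 15. Espl1, which encodes separase, was among the lowest genes, with 10.3 and 12.2 TPM at 1 h, 9.45 in 8 h replicate 14, and 22.5 and 21.1 in 8 h replicates 13 and 15. Ube2c and Cdc20 were 3.72 and 3.59 times as high in series 2 as in 8 h replicate 14, and Espl1 2.31 times. All 3 were at or near the 1 h level in 8 h replicate 14, which was below both 1 h libraries for Ube2c and Espl1 and between them for Cdc20, and Ube2c and Cdc20 are among the promoters printed above.

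The chromosomal passenger complex corrects faulty kinetochore attachments and later acts at the central spindle. Its 4 genes, the kinase gene Aurkb, the scaffold gene Incenp, Birc5 (survivin) and Cdca8 (borealin), all lay lower in 8 h replicate 14 than in either 1 h library. Aurkb had 29.2 and 29.97 TPM at 1 h, 22.3 in 8 h replicate 14, and 71.6 and 64.6 in 8 h replicates 13 and 15, with a limma fold change of -0.39 (SE 0.12, adjusted p = 0.44) within the series. Cdca8 had 45.01 and 52.3 TPM at 1 h, 40.5 in 8 h replicate 14, and 129 and 126 in 8 h replicates 13 and 15, and Birc5 had 43.6 and 54.3 TPM at 1 h, 41.04 in 8 h replicate 14, and 109.6 and 123 in 8 h replicates 13 and 15. The kinase gene and its partners thus shared one order of libraries, with 8 h replicate 14 lowest and series 2 highest. Incenp showed the smallest ratio of series 2 to 8 h replicate 14 in the complex, 2.399, with 34.96 and 39.7 TPM at 1 h, 32.8 in 8 h replicate 14, and 79.9 and 77.4 in 8 h replicates 13 and 15. Aurkb and Cdca8 had ratios of 3.05 and 3.15. Without 8 h replicate 14, in the fit that sets series 2 against series 1, all 4 genes were called higher, against 2.97% of all genes.

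Among the centromere and kinetochore genes, Cenpa, which encodes the histone H3 variant of centromeric chromatin, had 32.7 and 36.04 TPM at 1 h, 34.1 in 8 h replicate 14, and 107 and 99.7 in 8 h replicates 13 and 15. Its limma fold change was 1.04 (SE 0.49, adjusted p = 0.422) over all libraries and -0.0091 (SE 0.12, adjusted p = 0.991) within the series. Ndc80 and Nuf2 encode partners in the complex that grips microtubules. Nuf2 had 31.7 and 34.1 TPM at 1 h, 24.7 in 8 h replicate 14, and 74.9 and 84.5 in 8 h replicates 13 and 15, and Ndc80 had 21.2 and 19.2 TPM at 1 h, 17.99 in 8 h replicate 14, and 38.8 and 39.04 in 8 h replicates 13 and 15. The partners differed in their ratio of series 2 to 8 h replicate 14, which was 3.23 for Nuf2 and 2.16 for Ndc80, and Nuf2 alone of the pair was called without 8 h replicate 14. No test of the difference between them was made. Cenpf and the kinetochore motor gene Cenpe were low, at 13.2 to 15.99 TPM in series 1 and 29.6 to 39.5 TPM in series 2.

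The kinesin motors included Kif11, the motor that pushes the spindle poles apart, which had 42.4 and 46.6 TPM at 1 h, 41.8 in 8 h replicate 14, and 91.5 and 102.1 in 8 h replicates 13 and 15. Kif23 (MKLP1) and Kif20a (MKLP2) act at the central spindle in cytokinesis, and had ratios of series 2 to 8 h replicate 14 of 3.56 and 3.01. Kif23 had 12.5 and 14.4 TPM at 1 h, 12.1 in 8 h replicate 14, and 41.9 and 44.2 in 8 h replicates 13 and 15. Kif20a had 19.6 and 21.8 TPM at 1 h, 21.05 in 8 h replicate 14, and 63.9 and 62.7 in 8 h replicates 13 and 15. Kif2c, which encodes the microtubule depolymerase MCAK, had 22.7 and 20.7 TPM at 1 h, 26.02 in 8 h replicate 14, and 63.2 and 54.1 in 8 h replicates 13 and 15. Its libraries did not overlap between 1 h and 8 h, and its unadjusted limma p of 0.0332 was the smallest of the 38, with a fold change of 1.01 (SE 0.37, adjusted p = 0.385). Kif4, a chromosome-bound motor gene of the X chromosome, had 17.7 and 19.4 TPM at 1 h, 16.7 in 8 h replicate 14, and 40.7 and 43.7 in 8 h replicates 13 and 15. Its ratio of series 2 to 8 h replicate 14, 2.53, lay inside the range of the autosomal members.

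Of the spindle-associated proteins, Tpx2, which activates AURKA on the spindle, had 39.6 and 44.4 TPM at 1 h, 40.6 in 8 h replicate 14, and 115 and 126 in 8 h replicates 13 and 15. Prc1, which cross-links the antiparallel microtubules of the central spindle, had 31.6 and 32.5 TPM at 1 h, 32.1 in 8 h replicate 14, and 114 and 103 in 8 h replicates 13 and 15. Both had 8 h replicate 14 between the 1 h libraries, and the within-series change of Prc1 was 0.0024 (SE 0.12, adjusted p = 0.997) by limma, whereas without 8 h replicate 14 it was 1.72 (SE 0.096, adjusted p = 0.002). Nusap1 and Hmmr, which encode microtubule-binding proteins of the spindle, had 20.2 to 30.2 TPM in series 1 and 57.1 to 74.7 TPM in series 2. Ratios of series 2 to 8 h replicate 14 in this group ran from 2.81 (Nusap1) to 3.37 (Prc1).

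As grouped here, cytokinesis, with Anln and Ect2 alone, was the one role whose members all stood higher in 8 h replicate 14 than in both 1 h libraries. Kif23 and Kif20a, which also act in cytokinesis but were grouped with the kinesin motors, did not. In 8 h replicate 14, Kif23 lay below both 1 h libraries and Kif20a between them. Anln (GRCm38, chr9:22331214-22389206, minus strand) encodes anillin, a scaffold of the contractile ring, and had 10.3 and 10.2 TPM at 1 h, 12.6 in 8 h replicate 14, and 36.02 and 40.5 in 8 h replicates 13 and 15. Its mean was 10.2 ± 0.0935 TPM (SD, n = 2) at 1 h and 29.7 ± 14.98 TPM (SD, n = 3) at 8 h. Its fold change over all libraries, 1.29 (SE 0.48, adjusted p = 0.385) by limma, was the largest of the 38 genes, and so was its within-series value of 0.28 (SE 0.14, adjusted p = 0.623). Ect2, the exchange factor that activates RhoA at the division plane, had 22.9 and 26.8 TPM at 1 h, 27.4 in 8 h replicate 14, and 65.03 and 62.1 in 8 h replicates 13 and 15. For Ect2 the limma fold change was 0.93 (SE 0.38, adjusted p = 0.403), and 8 h replicate 14 exceeded 1 h replicate 2 by less than the 1 h libraries differed from each other.

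The last pair are widely used markers of cycling cells. Top2a (GRCm38, chr11:98992943-99024189, minus strand) encodes topoisomerase II alpha, which untangles sister chromatids, and had 156 and 161 TPM at 1 h, 147 in 8 h replicate 14, and 324 and 376 in 8 h replicates 13 and 15. Its mean was 158 ± 3.10 TPM (SD, n = 2) at 1 h and 282 ± 119.8 TPM (SD, n = 3) at 8 h, so the spread at 8 h was close to the difference between the means. Its limma fold change was 0.72 (SE 0.39, adjusted p = 0.455) over all libraries and 1.14 (SE 0.098, adjusted p = 0.00316) without 8 h replicate 14. Mki67, which encodes the Ki-67 coat protein of mitotic chromosomes, had 51.3 and 56.6 TPM at 1 h, 52.1 in 8 h replicate 14, and 80.3 and 96.2 in 8 h replicates 13 and 15. At 1.69 times, its difference between series 2 and 8 h replicate 14 was the second smallest after Bub3.

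Within the 8 h group the mean of replicates 13 and 15 was 2.82 times replicate 14 at the median of the 38 genes, against 1.09 times over all genes. It was at least 2-fold for 36 genes and at least 3-fold for 14. The order ran from Plk1, Ccnb1, Ube2c, Cdc20 and Ccnb2 at the top to Mad2l1, Ttk, Ndc80, Mki67 and Bub3 at the bottom. These ratios compare 2 libraries with 1, and neighbours in the order were not tested against each other. Replicate 14 was 0.944 times the 1 h mean at the median, with a range from 0.749 (Foxm1) to 1.23 (Anln). For scale, 1 h replicate 2 was 0.868 (Cdk1) to 1.499 (Plk1) times 1 h replicate 1, and 8 h replicate 15 was 0.832 (Ccnb1) to 1.30 (Bub1) times 8 h replicate 13. The ratio within the 8 h group exceeded the highest of these pair ratios, the 1.499 of Plk1, for all members but Bub3, at 1.396. Bub3's own pairs were closer, with 123 and 116 TPM at 1 h and 162 and 159 in 8 h replicates 13 and 15.

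**Figure D4:**
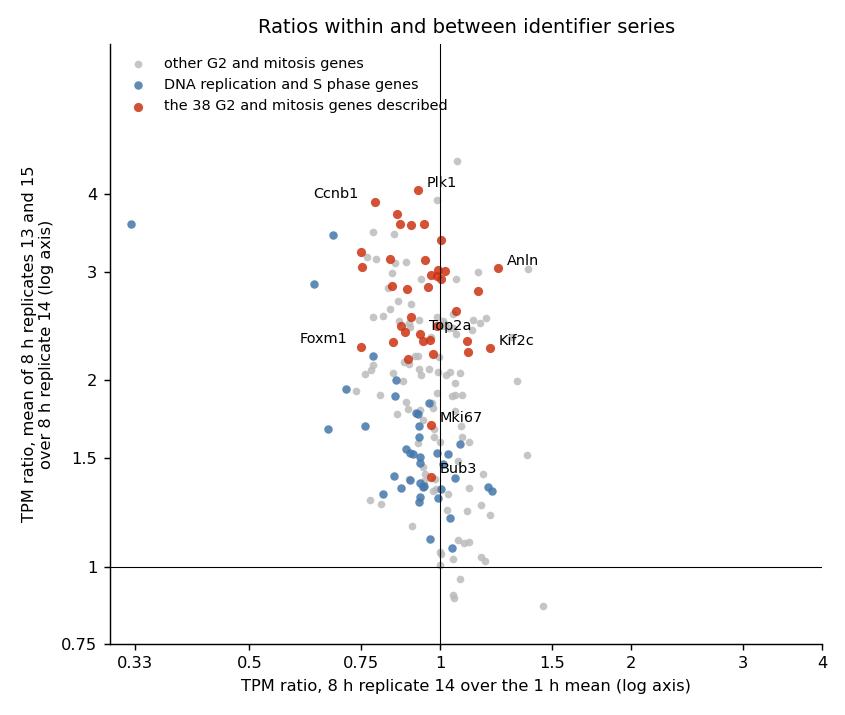
TPM ratio of 8 h replicate 14 over the 1 h mean (horizontal log axis) against the ratio of the mean of 8 h replicates 13 and 15 over 8 h replicate 14 (vertical log axis), 1 point per gene. The 38 genes (red) lie between 1.40 and 4.06 on the vertical axis and between 0.749 and 1.23 on the horizontal one, and the S phase genes (blue) have a vertical median of 1.51.

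Most other genes of the pathway also lay higher in series 2. Of 109 further G2 and mitosis genes, limma called 0 over all libraries, against 0.0433% of all genes. There, 15 had an unadjusted p under 0.05 with a higher level at 8 h, against 9.52% of all genes. Without 8 h replicate 14, limma called 41 of the 109 higher, against 2.97% of all genes. The median fold change of the 109 genes was 0.56 over all libraries and -0.014 once the series was a term. Of the 109, 98 had both series 2 libraries above series 1, against 39.8% of all genes. The median ratio of series 2 to 8 h replicate 14 was 1.99. Not all members of this wider list followed the series to the same extent. Kpna2, which encodes an importin that also binds spindle factors, had 189.9 and 206 TPM at 1 h, 174 in 8 h replicate 14, and 369 and 376 in 8 h replicates 13 and 15. Hmgb2, a chromatin protein gene, had 139.9 and 142 TPM at 1 h, 110.1 in 8 h replicate 14, and 276 and 281 in 8 h replicates 13 and 15, and Ube2s, the enzyme that extends ubiquitin chains on APC/C substrates, 191 and 226 TPM at 1 h, 204 in 8 h replicate 14, and 331 and 351 in 8 h replicates 13 and 15. Lmnb1, which encodes lamin B1 of the nuclear envelope, had a ratio of 1.79, and the APC/C subunit gene Anapc5 a ratio of 1.38.

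The genes of the preceding phase were read in the same way. Of 40 DNA replication and S phase genes, 37 had both series 2 libraries above series 1, against 39.8% of all genes. For 6 of the 40 this was by over 1.5 times, against 5.93% of all genes. Limma called 0 of the 40 over all libraries, against 0.0433% of all genes, and 0 higher without 8 h replicate 14, against 2.97%. Over all libraries, 1 of the 40 had an unadjusted p under 0.05 with a higher level at 8 h, against 9.52% of all genes. The S phase genes had a median ratio of series 2 to 8 h replicate 14 of 1.51 and a median fold change of 0.26. Their ratios ran from 1.07 (Orc6) to 3.58 (Fen1), and those of the 38 genes from 1.40 to 4.06. Pcna, the sliding clamp of DNA polymerase, had 314 and 304 TPM at 1 h, 279 in 8 h replicate 14, and 404 and 445 in 8 h replicates 13 and 15. Rrm2, the ribonucleotide reductase subunit gene, had a ratio of 2.19, Rrm1 one of 1.84, and the replicative helicase genes Mcm7 and Mcm4 ratios of 1.34 and 1.34. The difference between the lists was not tested.

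Of 17 subunits and regulators of DREAM and MMB, limma called 0 over all libraries, against 0.0433% of all genes. There, 6 had an unadjusted p under 0.05 with a higher level at 8 h, against 9.52% of all genes. Each 8 h library lay above both 1 h libraries for 8 of the 17, against 23.7% of all genes. Without 8 h replicate 14, limma called 1 of the 17 higher, against 2.97% of all genes. The median ratio of series 2 to 8 h replicate 14 over the 17 genes was 1.24. Mybl2, which encodes the B-Myb subunit that turns the core into MMB, had 18.1 and 24.6 TPM at 1 h, 14.98 in 8 h replicate 14, and 28.8 and 26.5 in 8 h replicates 13 and 15. Lin9, a core subunit gene, had 15.2 and 15.6 TPM at 1 h, 17.8 in 8 h replicate 14, and 24.2 and 19.7 in 8 h replicates 13 and 15. Cdkn1a, which encodes the CDK inhibitor p21, was abundant, with 607 and 615 TPM at 1 h, 719 in 8 h replicate 14, and 736 and 619 in 8 h replicates 13 and 15, and its libraries did not follow the series. Tfdp1, a partner of the E2F factors, had a ratio of 1.24.

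Markers of other cell types were read beside these values. The 7 neural stem and precursor markers were all at a mean TPM of 1 or more. They summed to 3285 to 3317 TPM at 1 h, 3272 TPM in 8 h replicate 14 and 3555 to 3790 TPM in series 2. Vim made up most of these sums, with a ratio of series 2 to 8 h replicate 14 of 1.22. Both series 2 libraries lay above series 1 for 4 of the 7, against 39.8% of all genes. Nes instead was lower in both than in all of series 1, with a ratio of 0.885, and Sox2 and Sox9 had ratios of 0.906 and 0.927. The 6 astrocyte markers were higher in series 2, as the G2 and mitosis genes were, with sums of 8555 to 9173 TPM at 1 h, 8552 TPM in 8 h replicate 14 and 10690.4 to 11540.1 TPM in series 2. Fabp7 made up most of these sums, with a ratio of series 2 to 8 h replicate 14 of 1.26, whereas the median ratio of the list was 1.91. Gfap, the intermediate filament gene of astrocytes, had 4.35 and 4.15 TPM at 1 h, 1.81 in 8 h replicate 14, and 25.998 and 47.2 in 8 h replicates 13 and 15, and the water channel gene Aqp4 had 12.04 and 11.1 TPM at 1 h, 7.33 in 8 h replicate 14, and 30.7 and 45.2 in 8 h replicates 13 and 15. Their ratios of 20.2 and 5.18 were above the highest of the 38 genes, 4.06. Nes, Sox2 and Sox9, Gfap and Aqp4, and Tubb3, Dcx, Snap25 and Rbfox3 of the neuron list, were picked out after their values were seen. Neuron and neuroblast markers (5 genes, all at a mean TPM of 1 or more) summed to 270.3 to 276 TPM at 1 h, 459.6 TPM in 8 h replicate 14 and 213 to 241 TPM in series 2. The high sum rested on Map2, with 217 and 210.2 TPM at 1 h, 405 in 8 h replicate 14, and 173 and 196 in 8 h replicates 13 and 15, while Tubb3, Dcx, Snap25 and Rbfox3 did not exceed the higher 1 h library in 8 h replicate 14. Oligodendrocyte lineage markers (7 genes, all at or above that level) summed to 1639 to 2276 TPM in series 1 and 2143 to 2461 TPM in series 2. The part of these markers, and of the mitochondrial share given above, in the differences was not tested. Of 6 microglial markers 0 reached a mean TPM of 1, and Aif1 and Tmem119 were listed at 0 in each library. Of 5 endothelial markers 2 did, with Cdh5 and Cldn5 at 0, and of 4 ependymal markers 1 did, with Tmem212 at 0.

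The count table lists 30 of the 38 genes. EdgeR's quasi-likelihood test called 0 of them, as it did 0 of 7590 genes overall (0%), and 0 had an unadjusted p under 0.05, against 1 with DESeq2. Over all genes of the table, 199 had an unadjusted p under 0.05 with edgeR and 227 with DESeq2. The median fold change was 0.50 on the log2 scale, with adjusted p-values from 0.966 to 0.981. Summed over the 30 genes, CPM (counts as a share of the column total, on a fixed scale) were 2551 and 2867 at 1 h, and 2475, 2681 and 5729.6 in the columns named 8 h replicates 13, 14 and 15. A single column was thus high, and it is the one that followed the TPM table of 8 h replicate 13 most closely. Top2a had 443 and 471 CPM at 1 h and 401, 419 and 842 in the 8 h columns in the same order. The median was -0.060 when the column named 8 h replicate 15 was left out, and 7 of the 30 genes were above 0.

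**Figure D5:**
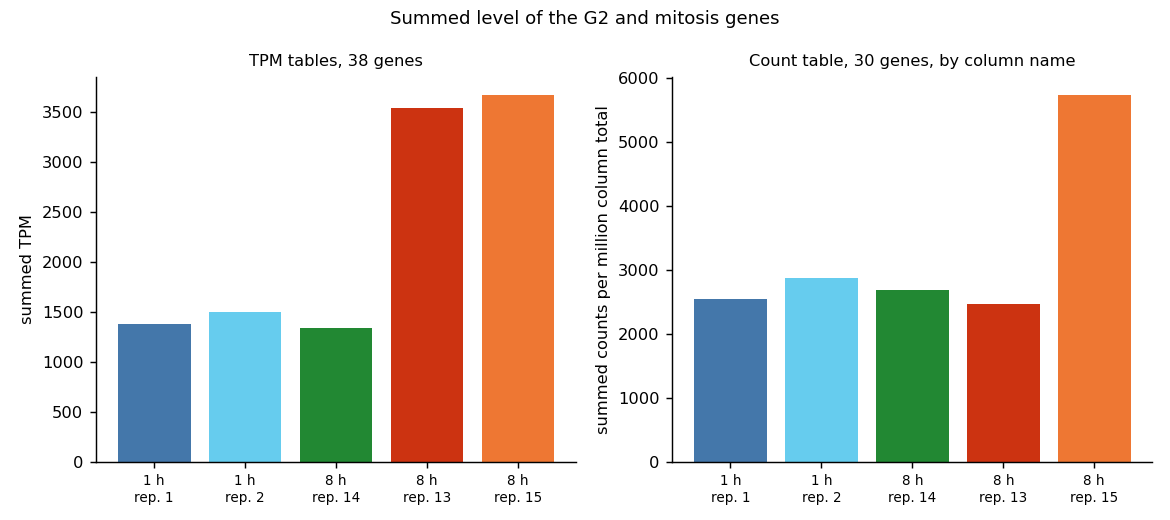
Summed level of the G2 and mitosis genes per library, as TPM of 38 genes (left) and as CPM of 30 genes by column name (right), both axes starting at 0. In TPM 8 h replicates 13 and 15 stand at 3544 and 3666 and the other libraries at 1337 to 1495, while among the count columns only the one named 8 h replicate 15 is high, at 5729.6.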

How the data were processed

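Gene expression was measured in 5 libraries by stranded, poly-A selected RNA-seq. Per the labels, reads were processed with bcl2fastq 2.19.1.403 and CASAVA on GRCm38, and DESeq2 is also named there. The authors deposited one table of whole read counts per gene, made with STAR and featureCounts through the nf-core workflow, without normalization. It covers part of the genes, and its column totals of 13988166 to 18572154 counts are not the full depth. The authors also deposited, per library, gene tables with TPM, FPKM and mean coverage. Their layout is that of StringTie, and no source used here names the tool. The deposited FPKM values were not used. The deposited coverage, a signal per base, served only to describe depth: the median member had 39.4 to 131 reads per base and the lowest 17.5, so no member rested on few reads. Genes with more than 1 row (15 to 20 extra rows per table) were summed.

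Groups came from the labels. Limma 3.58.1 (R 4.3.3) with an intensity trend was run on log2(TPM + 1) for genes whose mean TPM was 1 or more. A gene was called at a Benjamini-Hochberg adjusted p of at most 0.05 over all genes tested and an absolute log2 fold change above 1, the thresholds of the study. Fold changes on this scale understate those of low genes. EdgeR 4.0.16 (quasi-likelihood, TMM, filterByExpr) was run on the counts, with columns assigned by name and 0 columns left unassigned. Alternatives were pseudocount 0.1, no filter, other scalings, DESeq2 1.42.0, other thresholds, the identifier series as a term, series 1 alone and leaving out each library. Limma and edgeR were run on simulated data with known changes in every 8 h library. The simulation held no difference between series, so it does not represent the split within the 8 h group. All 38 members are named. In the other lists, the most highly expressed genes are named, with Mybl2, Lin9 and the genes at the ends of a range of ratios. Members, lists and tests were chosen with earlier results of these data known. The p-values rest on the spread between the few libraries of each group, and limma draws each gene's variance in part from all genes. Over all libraries, the spread at 8 h includes the difference between the series. With the identifier series as a term, 8 h replicate 14 has no spread of its own, which is taken from the other libraries. The protocol in the labels also describes cells exposed to hydrogen peroxide, which were not analysed here.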

Additional observations from a re-analysis of the deposited data

How the results depend on the processing

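With the identifier series as a term, the median fold change of the 38 genes in the TPM tables turned from 0.89 to -0.074. It did likewise with the libraries of series 1 alone, where 1 library stands for 8 h and its spread is taken from the 1 h libraries. In both fits the median over all genes tested was 0.013, against 0.10 before. These 29 members then had log2 values below 0, all uncalled by limma: Foxm1 -0.41, Nuf2 -0.40, Aurkb -0.39, Ccnb1 -0.33, Cdca8 -0.25, Birc5 -0.24, Espl1 -0.22, Ube2c -0.21, Bub1 -0.20, Ccnb2 -0.19, Incenp -0.18, Nusap1 -0.17, Ndc80 -0.16, Kif4 -0.14, Kif23 -0.14, Top2a -0.10, Plk1 -0.087, Kif11 -0.087, Ccna2 -0.081, Cdc20 -0.067, Cdc25c -0.053, Bub3 -0.050, Mki67 -0.048, Tpx2 -0.046, Cenpe -0.045, Ttk -0.035, Hmmr -0.018, Cenpf -0.016 and Cenpa -0.0091. The 9 others stayed above 0. Under pseudocount 0.1, no filter, median-ratio scaling (which moved the median of all genes from 0.10 to 0.0036) no fold change threshold and an adjusted p of at most 0.01, 0 members were called and all fold changes stayed above 0. Leaving out each library in turn gave 0 to 33 members called, 0 to 568 genes called over all genes and medians of 0.64 to 1.34, and the highest values of these all came without 8 h replicate 14. Over all genes, the 6 called became 0 without a filter, 19 with the series as a term and 2 at an adjusted p of at most 0.01, where limma found an unadjusted p under 0.05 for 2371 genes without a filter. In the count table every alternative called 0 genes. The median of the 30 members there was 0.0074 with the series of the column names as a term, and ran from -0.060 (without the column named 8 h replicate 15) to 0.76 when each column was left out. In the same way Top2a ran from -0.18 to 0.43, Ube2c from -0.025 to 0.98 and Ccna2 from -0.11 to 0.73, and with the series term Top2a had -0.16 and Ccna2 -0.047. The lowest of these came without the column named 8 h replicate 15. Beyond the libraries used, the cause was not tested. No paired analysis was possible because the 1 h and 8 h groups share no replicate number.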
